A study of Mus musculus with 2 samples.

Results

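Pou5f1, Utf1, Sall4, Dppa2, Dppa4, Dppa5a, L1td1 and Tdh are 8 genes whose transcripts are abundant in undifferentiated embryonic stem cells (ESCs). They are 8 of the 45777 genes listed for 2 mouse teratoma libraries, and they were found by their gene symbols. The genes were chosen from the ratio of their transcript levels between the same 2 libraries, so these ratios are given here as a description and carry no test. Levels are in TPM, which divides reads by transcript length and sets the same sum in each library, so that genes can be compared with each other. FPKM is the same measure without the common sum.

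The E14 library is a teratoma of wild-type E14 mouse ESCs, and the E14-Sox2TA/WT library is a teratoma of E14 cells with threonine 258 of Sox2 changed to alanine on 1 allele by CRISPR-Cas9 editing. Both cell types were placed under the skin of BALB/c-nu mice, with 3 mice per group, and the teratomas were taken on day 14. E14 culture was described with serum and leukemia inhibitory factor. The edited clones were normally kept with PD0325901 and CHIR99021 as well, and were used after these compounds were removed. No treatment of the hosts was named, and their age was not given. The edited line was expanded from single cells, so the genotype, the clone and this culture history cannot be told apart. Nude mice lack T cells but supply vessels, stroma and other immune cells to a graft, so the RNA is a mixture of graft and host. It was not stated whether a library came from 1 teratoma or from several. The label of each sample names the tissue as teratoma, whereas its extraction protocol mentions an ESC line as the source. Transcripts of differentiated tissues were present in both libraries. Tubb3, a neuronal tubulin, had a TPM of 1722 in E14 and 170 in E14-Sox2TA/WT, and Krt8, a keratin of simple epithelia, had a TPM of 118 and 426.

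There is 1 library per group, so no difference has a replicate check. Reads counted on genes numbered 50529171 for E14 and 49030281 for E14-Sox2TA/WT. The intervals in parentheses after a fold are exact 95% Clopper-Pearson intervals. They reflect the number of reads alone and set library against library, not genotype against genotype. The libraries also differed in sex-linked transcripts. The 4 listed Y-linked genes summed to 5453 reads in E14 and 0 reads in E14-Sox2TA/WT, and a count of 0 allows up to 3 reads. Xist, the RNA that coats the inactive X chromosome, had 706 and 2612 reads, which is a 3.34-fold higher TPM (3.08 to 3.64) in E14-Sox2TA/WT. The source of this difference and its part in the results were not tested. None of the 8 genes lies on a sex chromosome. Sox2, the edited gene, had 14585 reads and a TPM of 246 in E14 and 8623 reads and a TPM of 130 in E14-Sox2TA/WT, and the table does not separate its alleles.

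Pluripotency is held by a small circuit of transcription factors that bind together and maintain one another's genes. Pou5f1, also called Oct4, forms a pair with Sox2 on composite DNA elements at its own gene and at many others, and it is silenced as cells leave the epiblast, remaining in the germ line. The other genes act around this circuit as chromatin proteins, RNA-binding proteins and a metabolic enzyme. In a teratoma, the graft differentiates into many tissues, and such transcripts are known from cells in an undifferentiated or germ cell state. They are not all limited to such cells, since Sall4 is also transcribed in extraembryonic endoderm. The state of the cells was not measured here.

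Reference sequences of the stretch just before the start site were matched for 3 of the 8 genes, Pou5f1, Utf1 and L1td1. They are shown because this is where the general transcription machinery assembles. The 3 genes had like folds in these libraries, as described further on, but were not selected for that. A link between these sequences and the folds was not tested. For Pou5f1 the first of its 2 listed start sites is shown. Each runs 250 bases up to the start site on the plus strand of GRCm38.p6 (RefSeq), at chr17:35505782-35506031 for Pou5f1, chr7:139943606-139943855 for Utf1 and chr4:98726504-98726753 for L1td1. Capitals mark GGGCGG (the GC box bound by Sp factors) and AGGTCA (the half-site of nuclear receptors), read on both strands.
Pou5f1: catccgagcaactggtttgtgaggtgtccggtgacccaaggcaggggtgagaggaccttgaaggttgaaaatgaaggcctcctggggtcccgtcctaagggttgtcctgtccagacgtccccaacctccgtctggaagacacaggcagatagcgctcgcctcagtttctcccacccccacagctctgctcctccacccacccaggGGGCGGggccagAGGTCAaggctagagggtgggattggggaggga
Utf1: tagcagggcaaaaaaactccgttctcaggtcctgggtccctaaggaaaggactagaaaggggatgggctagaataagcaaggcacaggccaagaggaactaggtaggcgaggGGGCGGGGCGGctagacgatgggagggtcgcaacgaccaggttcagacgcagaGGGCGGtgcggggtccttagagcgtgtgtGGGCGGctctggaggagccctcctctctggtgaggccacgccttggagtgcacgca
L1td1: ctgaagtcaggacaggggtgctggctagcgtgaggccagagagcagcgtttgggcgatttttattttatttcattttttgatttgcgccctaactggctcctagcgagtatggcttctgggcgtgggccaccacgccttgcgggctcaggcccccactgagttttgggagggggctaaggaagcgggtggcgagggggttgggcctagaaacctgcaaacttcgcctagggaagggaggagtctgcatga
The Pou5f1 stretch held 1 GC box, 45 bases before the start site, and 1 AGGTCA, 33 bases before it. The Utf1 stretch held 4 GC boxes, at 138, 133, 85 and 56 bases before the start site, of which the first 2 overlap. No match to either motif was found in the L1td1 stretch. A GC box was present in 32.7% and AGGTCA in 14.02% of all 32851 promoters cut to the same length. The octamer ATGCAAAT (1.6% of promoters), the SOX core CATTGT (10.7%), TATAAA (12.4%) and the E-box CACGTG (6.02%) had no match in the 3 stretches. Pou5f1 has a second listed start site, and the 250 bases before it (chr17:35508557-35508806, not shown) held 1 SOX core on the minus strand, 158 bases before that start, and none of the other motifs. CpG dinucleotides numbered 8, 14 and 11 in Pou5f1, Utf1 and L1td1, against a median of 6 over all promoters. Of all promoters, 57.0%, 70.6% and 64.4% had fewer, so these counts were not extreme. The GC content was 62%, 61.6% and 57.6%, against a median of 52.4%. The stretch before the second Pou5f1 start site had 6 CpG dinucleotides and a GC content of 45.6%. Sites beyond these windows, such as the distal enhancer of Pou5f1, were not examined.

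All 8 genes had a higher TPM in the E14-Sox2TA/WT library than in the E14 library. Their summed TPM was 74.4 in E14 and 1850 in E14-Sox2TA/WT, a 24.8-fold difference, from 2806 and 54452 reads. In E14, 2 of the 8, Dppa5a and Pou5f1, had a TPM of at least 10, whereas in E14-Sox2TA/WT all 8 did. Under the study's rule for differentially expressed genes, a TPM ratio above 2 where either library reaches a TPM of 10, 8 of 8 were higher. The rule called 1253 of 11578 evaluated genes, or 10.8%, higher, and 2167, or 18.7%, lower. Both numbers are larger than those the study reported for its teratomas, and the reason was not tested. Since the genes were chosen from this ratio, nothing is read from the 8 of 8. The filter also fixes a direction, since a gene that reaches a TPM of 10 in 1 library only must be higher in that library, as holds for 6 of the 8 genes, and the counts of the lists given further on have the same limit. On the log2 scale, after adding 1 to every TPM, the median ratio was 3.97 over the 8 genes (range 2.44 to 5.25) and -0.18 over all evaluated genes. No gene of the 8 lay near the limit of the rule, the closest being Sall4. In bulk RNA, more cells of a type and more RNA per cell cannot be told apart.

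**Figure D1:**
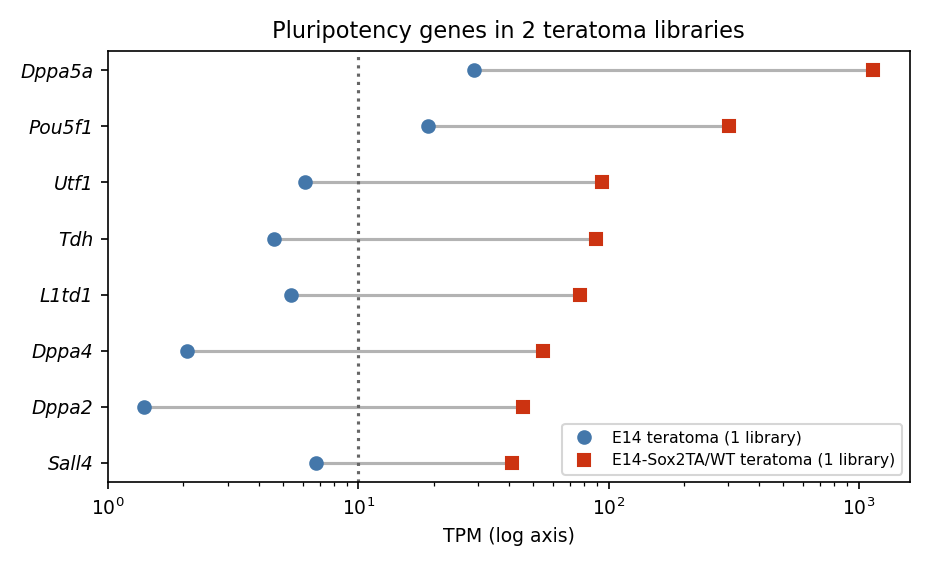
TPM (log axis) of the 8 genes, ordered by level in E14-Sox2TA/WT. Circles stand for the E14 library, squares for the E14-Sox2TA/WT library, each being 1 library without error bars, and the dotted line marks a TPM of 10. Every square lies to the right of its circle, and 6 circles but no square lie below a TPM of 10.

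Pou5f1 (gene ID 18999, chromosome 17, 35506032 to 35510777) had 621 reads, an FPKM of 8.16 and a TPM of 19.0 in the E14 library. In the E14-Sox2TA/WT library it had 11054 reads, an FPKM of 149.8 and a TPM of 304. Its TPM was thus 15.98-fold higher (14.7 to 17.4) in E14-Sox2TA/WT, and its place in the order of all 45777 genes by TPM went from 7910 to 438. Pou5f1 encodes the POU-domain partner of Sox2. The TPM of Sox2 was 1.89-fold lower (1.84 to 1.94) in E14-Sox2TA/WT, short of the 2-fold rule. Sox2 thus had a TPM 12.9 times that of Pou5f1 in E14 and 0.428 times that of Pou5f1 in E14-Sox2TA/WT. Sox2 is also transcribed in neural progenitors, whereas Pou5f1 is not. The neural tissue marker Tubb3 had a 10.1-fold lower TPM (9.88 to 10.35) in the same library, and its part in this ratio was not tested.

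Of the 15 genes of the Pou family, 8 were evaluated, and of these Pou5f1 alone passed the rule in the higher direction. Pou2f3, not evaluated because its TPM was under 10 in both libraries, had 6 reads in E14 and 161 in E14-Sox2TA/WT. Its TPM was 0.0901 and 2.17, 24.1-fold higher (10.8 to 66.6), so a rise was not particular to Pou5f1. Pou5f1 held 10.96% of the summed TPM of the family in E14 and 82.3% in E14-Sox2TA/WT. Of the 8 family members evaluated, 5 were lower: Pou2f2, a factor of B cells and neurons, and the neural factors Pou3f2, Pou3f3, Pou3f4 and Pou6f1. Lower calls made up 18.7% of all evaluated genes, and 2 of these 5 family members reached a TPM of 10 in E14-Sox2TA/WT. On FPKM, or with reads divided by the library total, 4 were lower. Pou3f3, for example, had a TPM of 44.6 in E14 and 11.4 in E14-Sox2TA/WT, which is 3.92-fold lower (3.69 to 4.17). Pou3f1, which is also transcribed in the primed epiblast, had a TPM of 14.3 and 10.1, and Pou2f1, a broadly transcribed octamer factor, 10.4 and 8.54, so neither passed the rule. The family median log2 ratio was -0.46, taken, as for every list, over all its genes in the table.

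Utf1 (gene ID 22286, chromosome 7, 139943856 to 139945112) encodes a chromatin-bound protein of ESCs and is a known target of the pair of Pou5f1 and Sox2. It had 171 reads, an FPKM of 2.62 and a TPM of 6.11 in E14. In E14-Sox2TA/WT it had 2945 reads, an FPKM of 46.5 and a TPM of 94.5. The fold was 15.5 (13.3 to 18.1), and this interval contains the fold of Pou5f1. Relative to Pou5f1, Utf1 stood at 0.321 of its TPM in E14 and 0.311 in E14-Sox2TA/WT, so the pair kept nearly the same proportion in both libraries.

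Sall4 (gene ID 99377, chromosome 2, 168748332 to 168767201) encodes a zinc finger factor that regulates Pou5f1 and recruits the NuRD corepressor. It had 832 reads, an FPKM of 2.92 and a TPM of 6.8 in E14 and 5562 reads, an FPKM of 20.3 and a TPM of 41.2 in E14-Sox2TA/WT. The 6.07-fold difference (5.64 to 6.53) was the smallest of the 8, and its interval overlapped that of no other gene. Sall4 went from 0.357 of the TPM of Pou5f1 in E14 to 0.136 in E14-Sox2TA/WT. It stood behind Dppa5a and Pou5f1 by TPM among the 8 genes in E14 and last in E14-Sox2TA/WT.

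The other 3 Sall genes had a lower TPM in E14-Sox2TA/WT. Sall2, abundant in neural tissue, had a TPM of 82.6 in E14 and 29.4 in E14-Sox2TA/WT, 2.81-fold lower (2.71 to 2.92). Sall3 had 14.7 and 5.59 and also passed the rule, whereas Sall1, known for its part in kidney development, had 50.1 and 34.6 and did not. Sall4 made up 4.41% of the summed TPM of the family in E14 and 37.2% in E14-Sox2TA/WT. Of the 14 NuRD subunits, 12 did not pass the rule in either direction, and over all evaluated genes 10.8% were higher and 18.7% lower. Mta3 was higher, with a TPM of 24.7 and 52.4, and Chd3, a helicase abundant in neurons, was lower, with 129 and 32.4. The median log2 ratio of the NuRD list was -0.01 on TPM but above 0 under each other scaling tried, and Mta3 no longer passed the rule with reads divided by the library total, or with TMM or median-of-ratios scaling.

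Dppa2 and Dppa4 are neighbours on chromosome 16, 15982 bases apart, and encode SAP-domain proteins that form a heterodimer on chromatin. Dppa2 (gene ID 73703, 48310274 to 48319513) had 66 reads, an FPKM of 0.598 and a TPM of 1.39 in E14 and 2375 reads, an FPKM of 22.4 and a TPM of 45.5 in E14-Sox2TA/WT. Dppa4 (gene ID 73693, 48283735 to 48294292) had 77 reads, an FPKM of 0.884 and a TPM of 2.06 in E14 and 2242 reads, an FPKM of 26.9 and a TPM of 54.6 in E14-Sox2TA/WT. These were the lowest levels among the 8 genes in E14. The folds were 32.7 (25.6 to 42.4) for Dppa2 and 26.5 (21.1 to 33.7) for Dppa4, and the intervals of the pair overlapped. Dppa2 stood at 0.676 of the TPM of Dppa4 in E14 and 0.834 in E14-Sox2TA/WT. Both were enriched relative to Pou5f1, Dppa2 going from 0.0732 to 0.150 of its TPM and Dppa4 from 0.108 to 0.180.

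In ESCs, Dppa2 and Dppa4 are known activators of Dux and, through it, of the genes of the 2-cell embryo, which a small share of ESCs transcribes at any time. All 14 such genes found in the table had more reads in E14-Sox2TA/WT, and 6 of them had 0 reads in E14. The share of all genes with these traits was not determined, so nothing is read from the 2 counts. Several of the 14 belong to the Zscan4 or the Usp17l family, so they are not separate observations. Together they had 123 reads in E14 and 8600 in E14-Sox2TA/WT, with a summed TPM of 2.55 and 164. Zscan4f, of a zinc finger family linked to telomere upkeep, had 37 and 2173 reads and a TPM of 0.823 and 44.2, 53.7-fold higher (38.8 to 76.5). Zscan4d had 7 and 1175 reads, and Zscan4c had 39 and 1771, but the Zscan4 genes are near-identical and reads may have been divided among them. Duxf3, the mouse Dux gene, had 0 and 30 reads, at least 8.96-fold higher when the count of 0 is set to 3 reads, and is named here after its values were seen. None of the 14 reached a TPM of 10 in E14, so the 6 that could be evaluated were so through E14-Sox2TA/WT only, and their passing the rule is no support.

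Dppa5a (gene ID 434423, chromosome 9, 78367052 to 78368199) encodes a KH-domain RNA-binding protein of ESCs and germ cells. It was the most abundant of the 8 genes in both libraries, with 449 reads, an FPKM of 12.5 and a TPM of 29.1 in E14. In E14-Sox2TA/WT it had 19703 reads, an FPKM of 563 and a TPM of 1144, which placed it 120th among all genes by TPM. The fold was 39.4 (35.8 to 43.3), the largest of the 8, and 91 evaluated genes had a larger one. Dppa5a made up 39.0% of the summed TPM of the 8 genes in E14 and 61.8% in E14-Sox2TA/WT, while the share of Pou5f1 went from 25.6% to 16.4%. Its TPM was 1.53 times that of Pou5f1 in E14 and 3.76 times in E14-Sox2TA/WT.

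Near-identical copies of Dppa5a carry reads too. Dppa5b and Dppa5c, also on chromosome 9, had 42 reads each in E14 and 1739 and 1744 in E14-Sox2TA/WT, and their folds were 37.7 (27.8 to 52.5) and 37.8 (27.8 to 52.6). With the 3 rows added together, the fold was 39.1 (35.9 to 42.7), close to that of Dppa5a alone. Among stretches of 50 bases in the GENCODE transcripts, 38.6% of those of Dppa5a, 35.9% of Dppa4, 29.1% of Dppa2, 15.9% of Pou5f1 and 15.0% of Tdh also occurred in another gene, against 4.86% for Sall4, 1.62% for L1td1 and none for Utf1. Besides Dppa5b and Dppa5c, 15 of the genes sharing a stretch were in the table, and 14 of these had at most 77 reads in either library. The other was Pigp, with 1336 and 1751 reads, which shared 12.3% of the stretches of Dppa5a and is named here after its values were seen. How shared reads were assigned was not stated.

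L1td1 (gene ID 381591, chromosome 4, 98726754 to 98738486) encodes an RNA-binding protein derived from the LINE-1 retrotransposon, known to act with Lin28. It had 381 reads, an FPKM of 2.31 and a TPM of 5.38 in E14 and 6062 reads, an FPKM of 37.8 and a TPM of 76.7 in E14-Sox2TA/WT. The 14.3-fold difference (12.8 to 15.8) had an interval that overlapped those of Pou5f1 and Utf1. The TPM of L1td1 was 0.283 of that of Pou5f1 in E14 and 0.252 in E14-Sox2TA/WT. Of 6 RNA-binding proteins linked to it, all had a higher TPM in E14-Sox2TA/WT and 2 passed the rule, against 10.8% of evaluated genes. Lin28a, which blocks the maturation of let-7 microRNAs, had a TPM of 13.2 and 81.5, 6.17-fold higher (5.80 to 6.58), and Igf2bp1, an mRNA-stabilizing protein, had 20.7 and 53.0. Lin28b, Igf2bp2, Igf2bp3 and Trim71 had folds between 1.35 and 2.48 and did not pass, the last of them because its TPM was under 10 in both libraries.

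Tdh (gene ID 58865, chromosome 14, 63492347 to 63509092) encodes threonine dehydrogenase, the mitochondrial enzyme that opens the breakdown of threonine and on which mouse ESCs depend. It had 209 reads, an FPKM of 1.98 and a TPM of 4.6 in E14 and 4509 reads, an FPKM of 43.9 and a TPM of 89.2 in E14-Sox2TA/WT. The fold was 19.4 (16.9 to 22.4). Gcat, the enzyme that follows Tdh in the pathway, had a TPM of 18.6 and 41.6, a 2.24-fold difference (2.08 to 2.40). The TPM of Gcat was therefore 4.04 times that of Tdh in E14 and 0.467 times that of Tdh in E14-Sox2TA/WT. Of 10 evaluated genes of threonine and glycine breakdown, 2 were higher, Gcat and the serine hydroxymethyltransferase Shmt1 (TPM 23.5 and 65.7), and 1 was lower, the folate enzyme Aldh1l1, an astrocyte marker (TPM 72.0 and 20.5). The other 7, among them Gcsh and Dld of the glycine cleavage system, did not pass the rule, and the median log2 ratio of the list was 0.23. Over all evaluated genes, 10.8% were higher and 18.7% lower. Gcat was named after its values were seen.

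**Figure D2:**
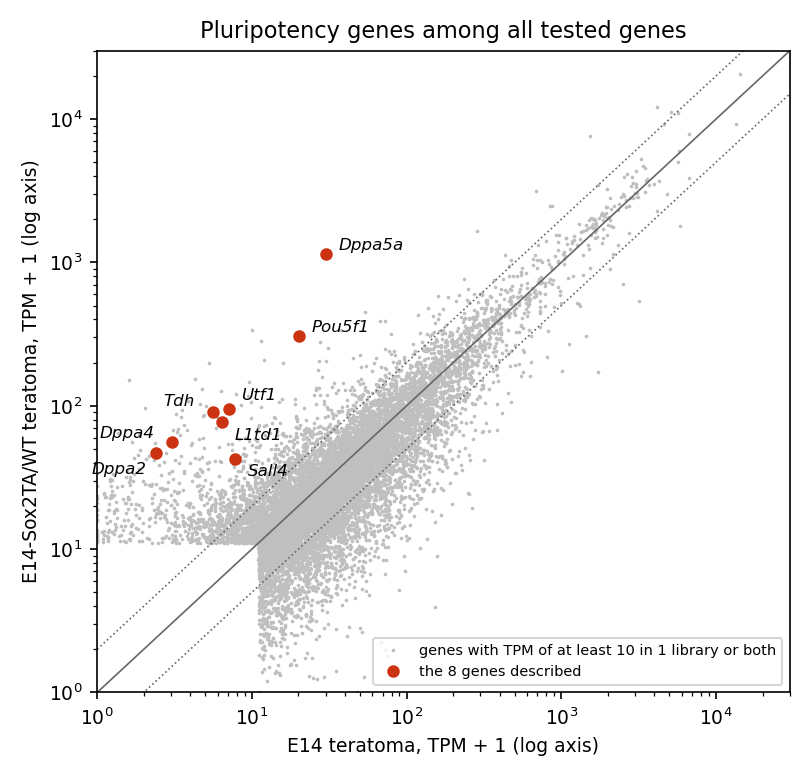
TPM + 1 in E14 (horizontal, log axis) against E14-Sox2TA/WT (vertical, log axis) for the 11578 genes that reach a TPM of 10 in either library. Grey points are all such genes, red points the 8 genes, the solid line marks equal values and the dotted lines a 2-fold difference, and all 8 lie above the upper dotted line.

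Ordered by fold, the genes ran from Dppa5a (39.4), Dppa2 (32.7), Dppa4 (26.5) and Tdh (19.4) to Pou5f1 (15.98), Utf1 (15.5), L1td1 (14.3) and Sall4 (6.07). By counting error, the neighbours Dppa5a and Dppa2, Dppa2 and Dppa4, Dppa4 and Tdh, Tdh and Pou5f1, Pou5f1 and Utf1, and Utf1 and L1td1 in this order had overlapping intervals, and only L1td1 and Sall4 did not. From the largest to the smallest, the fold varied 6.49 times. The order of levels was Dppa5a, Pou5f1, Sall4, Utf1, L1td1, Tdh, Dppa4 and Dppa2 in E14, and Dppa5a, Pou5f1, Utf1, Tdh, L1td1, Dppa4, Dppa2 and Sall4 in E14-Sox2TA/WT. Spearman's rho between the levels of the 8 genes in the 2 libraries was 0.619, a description across genes that share library and length scaling. Transcript length went with the ratio over all genes. Dppa5a falls among the shortest twentieth of genes, whose median log2 ratio was 0.45, and Sall4 among long genes with a median of -0.47. Relative to genes of like length, Dppa5a was 28.8-fold and Sall4 8.43-fold higher, so that Dppa2, at 34.3-fold, came before Dppa5a, while Sall4 remained last.

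**Figure D3:**
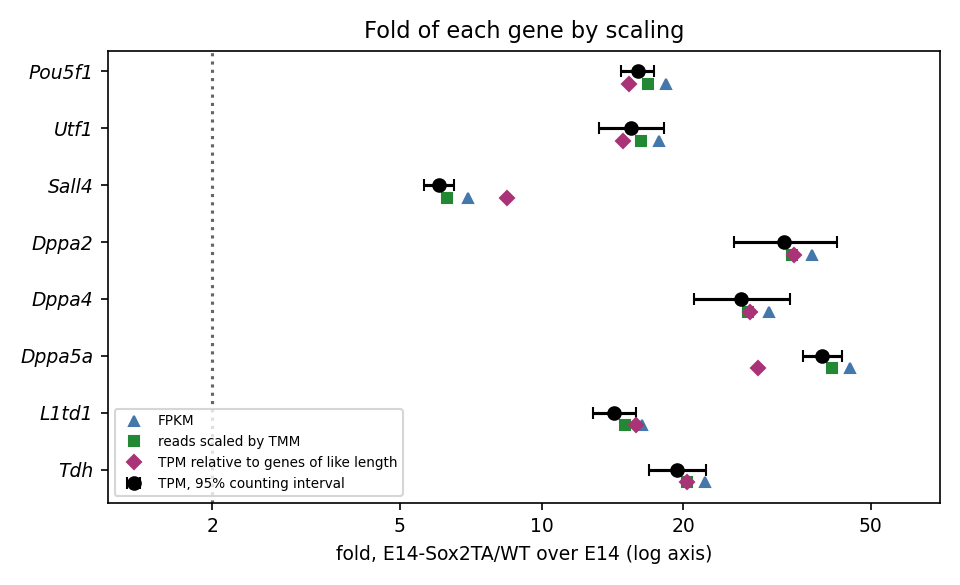
Fold of TPM, E14-Sox2TA/WT over E14 (log axis), for the 8 genes. Black circles are the ratio of TPM with its 95% counting interval, the other symbols the ratio of FPKM, of reads scaled by TMM factors, and of TPM relative to genes of like length, and the dotted line marks 2-fold. All symbols of all 8 genes lie to the right of the line.

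Other pluripotency genes were read from lists assembled by hand. The number of genes with a higher TPM is given for several lists, but the share over all genes was not determined. The median log2 ratio over all evaluated genes was -0.18. Of 12 genes of the naive state, 11 had a higher TPM in E14-Sox2TA/WT, with a median log2 ratio of 2.62 over the list. The 7 that passed the rule had a TPM under 10 in E14, and the gene that reached 10 there, the epithelial and ESC factor Klf5, had the lower TPM in E14-Sox2TA/WT (31.2 and 19.96) without passing. Nanog, a homeodomain factor of the core circuit, had a TPM of 8.37 in E14 and 116 in E14-Sox2TA/WT, 13.8-fold higher (12.6 to 15.3), and Zfp42, also called Rex1, had 3.88 and 85.2, 21.96-fold higher (18.8 to 25.8). Of 16 genes of a second list of shared ESC markers, 15 had a higher TPM in E14-Sox2TA/WT, with a median of 2.59. Among the 7 that reached a TPM of 10 in E14, 4 passed the rule as higher and 3 did not pass. It holds Dnmt3l, a cofactor of DNA methylation (TPM 2.25 and 86.7), Fbxo15, an F-box protein (3.65 and 102), and Lefty1, a Nodal antagonist (28.35 and 106). Sox2 is on this list too and was one of those 3. Of the primed epiblast list, 1 of 10 evaluated genes was higher and 3 were lower, against 10.8% and 18.7% of all evaluated genes, and the median was -0.27. The 2 genes not evaluated, named after their values were seen, had a higher TPM in E14-Sox2TA/WT. They were Fgf5 (3.88 and 7.79, 2.01-fold, 1.72 to 2.36) and Foxd3 (1.40 and 2.34, 1.67-fold, 1.26 to 2.21). Over all 12 genes, 4 had a higher and 8 a lower TPM. All 10 evaluated genes reached a TPM of 10 in E14, unlike most of the naive genes, and the difference between the lists was not tested. Its higher gene was the DNA methyltransferase Dnmt3b (TPM 13.6 and 66.1), and the lower ones were Sox3, Cdh2 and Sall2, all of which neural tissue transcribes as well.

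The lists of genes around Pou5f1 itself, some of which repeat genes already named, gave the following. Of 9 known targets, among them Utf1 itself, 8 were higher and Sox2 did not pass, with a median log2 ratio of 3.57. Among the 3 targets that reached a TPM of 10 in E14, Lefty1 and Spp1 were higher. Spp1, the secreted protein osteopontin, which macrophages and bone also make, had a TPM of 36.7 and 340, 9.25-fold higher (8.73 to 9.81). Of 6 evaluated activators of Pou5f1, 3 were higher, each evaluated through E14-Sox2TA/WT only: Sall4, Nanog and the orphan nuclear receptor Esrrb (TPM 2.39 and 27.8, 11.6-fold, 10.2 to 13.3). Of 7 evaluated repressors, 2 were higher and 2 lower, against 10.8% and 18.7% of all evaluated genes. The higher ones were Nr6a1, a nuclear receptor that silences Pou5f1 in differentiating cells (TPM 5.34 and 24.4, 4.58-fold, 4.24 to 4.95), and Dnmt3b. The lower ones were Nr2f1, a nuclear receptor of neural tissue (91.4 and 27.3), and the histone methyltransferase Ehmt2 (151 and 50.1).

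Transcripts of other cell types, some of which share these genes, were read as well, and their part in the results was not tested. Over all evaluated genes, 10.8% passed the rule as higher and 18.7% as lower. Germ cells transcribe Pou5f1, Sall4, Utf1 and the Dppa genes. Of 16 listed germ cell genes, 13 had a higher TPM in E14-Sox2TA/WT, with a summed TPM of 53.2 and 234. The 5 that passed the rule were evaluated through E14-Sox2TA/WT only. The 2 that reached a TPM of 10 in E14, the receptor Kit (25.3 and 17.7) and Nanos3 (10.9 and 6.17), named after their values were seen, had a lower TPM in E14-Sox2TA/WT without passing. Dazl, an RNA-binding protein of germ cells, had a TPM of 3.12 and 53.6, 17.2-fold higher (15.0 to 19.8). Stra8 and Sycp3, genes of meiotic entry and of the synaptonemal complex, had 2.26 and 64.4, and 0.342 and 26.1. No listed germ cell gene was at 0 reads in either library. Sall4 is also transcribed in extraembryonic endoderm. The primitive endoderm list had 4 of 7 evaluated genes higher, or 2 of the 5 that reached a TPM of 10 in E14, and a summed TPM of 244 and 549, with Gata4 at 0.511 and 13.5 and Dab2 at 14.1 and 105. The trophoblast list had Krt7 at 42.2 and 128, Tfap2c, evaluated through E14-Sox2TA/WT only, at 2.26 and 19.7, and Gata3, which was not evaluated and is named after its values were seen, at 8.91 and 3.08. It had a summed TPM of 62.8 and 178, and 4 of 11 genes at 0 reads in E14. The macrophage list, of host cells in a graft, had 3 of 11 evaluated genes higher, or 1 of the 9 that reached a TPM of 10 in E14, and a summed TPM of 1073 and 1817. The other 8 evaluated macrophage genes did not pass the rule. The list of teratoma tissues had 3 higher and 3 lower of 11 evaluated genes.

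**Figure D4:**
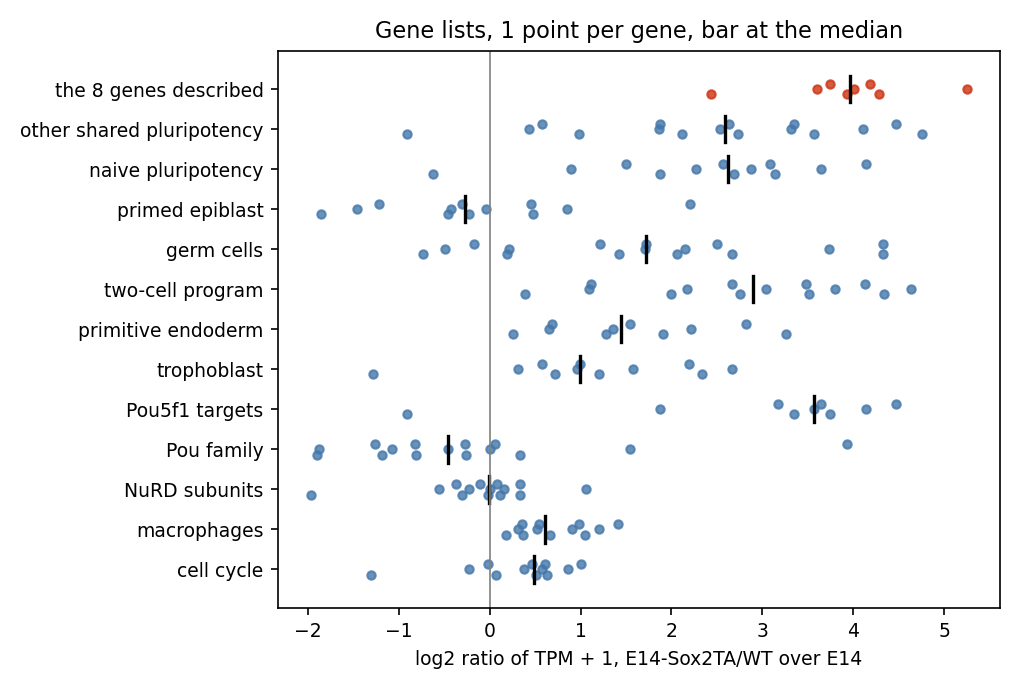
Log2 ratio of TPM + 1, E14-Sox2TA/WT over E14, for the 8 genes and for the genes of the lists named on the left. Each point is 1 gene and the bar marks the median of the list. The 8 genes, chosen from this ratio, have a median of 3.97, the known Pou5f1 targets 3.57, the genes of the 2-cell embryo 2.89 and the cell cycle genes 0.49.

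Genes beside the 8 on the chromosome varied in their ratio. The nearest named gene that reached a TPM of 1 was taken on each side at any distance, which was 1785200 bases for Nectin3 before Dppa4. This gave 14 distinct genes besides Dppa2 and Dppa4, with a median log2 ratio of 0.16. Of the 10 evaluated, 3 were higher, 4 were lower and 3 did not pass, against 10.8% higher and 18.7% lower over all genes. The higher ones were Ooep, Morc1 and Adam8, all evaluated through E14-Sox2TA/WT only. Ooep, an oocyte protein gene 8704 bases from Dppa5a, had 19 and 947 reads and a TPM of 0.622 and 29.2, 46.9-fold higher (29.9 to 78.2). Morc1, a germ cell silencing factor 111724 bases from Dppa2, had a TPM of 0.95 and 18.2, 19.2-fold higher (15.1 to 24.8). Adam8, a metalloprotease of leukocytes beyond Utf1, had 4.56 and 14.1. In contrast, Kndc1 on the other side of Utf1, Atp9a beside Sall4, and Fam167a and Mtmr9 on both sides of Tdh were lower by between 2.23-fold and 3.66-fold, and of these Atp9a would not pass on FPKM (34.8 and 17.9). Tcf19, which lies 1953 bases from Pou5f1, had a TPM of 50.03 and 27.1 and did not pass the rule.

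Ooep belongs with Khdc3 and the Khdc1 genes to a family of KH-domain genes related to Dppa5a. Of 9 listed genes of this family, of the neighbouring Omt2 genes and of other Dppa genes, 7 had 0 reads in E14 and 3 of these also in E14-Sox2TA/WT. Khdc3 had 0 and 120 reads, at least 35.8-fold higher when the count of 0 is set to 3 reads. Dppa3, also called Stella, a maternal factor that protects methylation in the zygote, had a TPM of 5.30 and 39.6, 7.47-fold higher (6.09 to 9.23). Dppa1 had 0 reads in both libraries. Gm14261 overlaps Sall4 and Gm17232 overlaps Tdh, but with 10 and 38 reads, and 34 and 24 reads, they had few reads to share with them.

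**Figure D5:**
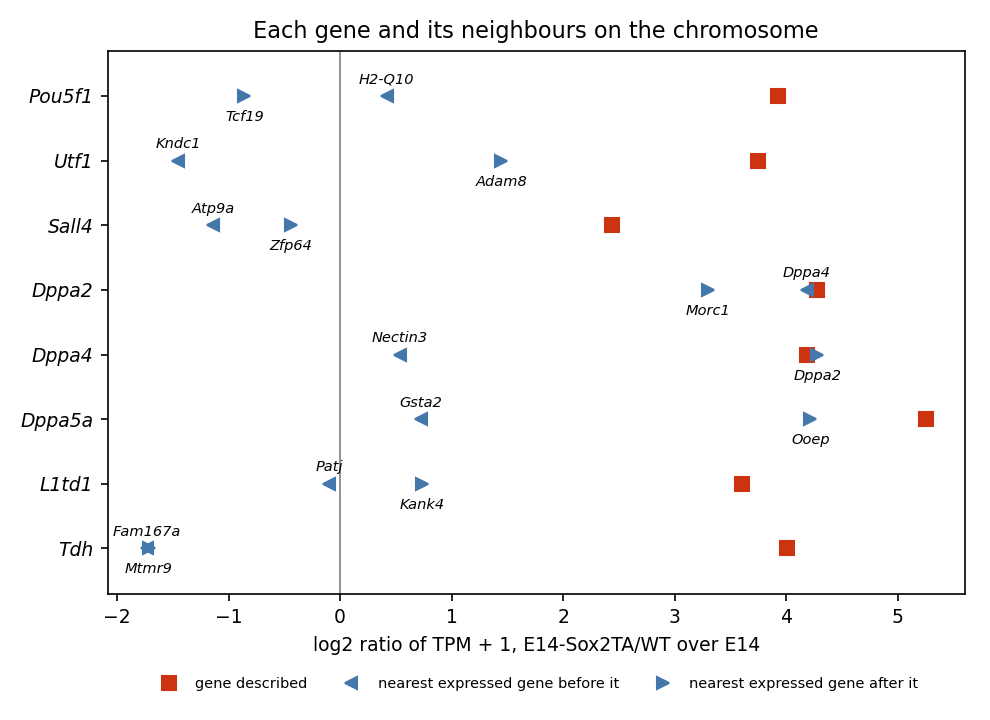
Log2 ratio of TPM + 1, E14-Sox2TA/WT over E14, of each of the 8 genes (squares) and of the nearest named gene with a TPM of at least 1 before and after it on the chromosome (triangles, labelled). Beyond Dppa2 and Dppa4, which neighbour each other, the triangles of Ooep and Morc1 lie above 3 and all others lie below 2.

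The genes whose levels were most like those of each of the 8 were found by the distance between log2 values of TPM + 1 over the 2 libraries, which rests on 2 points only and says nothing of shared control. Nearest to Pou5f1 were Crabp1 (distance 0.488, TPM 26.8 and 278), a retinoic acid-binding protein, Apod (0.686), an apolipoprotein, and Krt13 (0.707), a keratin of stratified epithelia. For Dppa5a no gene was close, the nearest being the pseudogene Gm8203 at 1.59 and Spp1 at 1.78. Some of the nearest genes were markers of pluripotent or germ cells, such as Tdgf1 for Utf1, Zfp42 for Tdh and Stra8 for Dppa4, and the pseudogene Rbm3-ps was among the nearest 3 of Utf1, L1td1 and Tdh. Others, such as Ephx2 and Ccl11 for Sall4, Ttr for Dppa2, Apoa1 for Dppa4 and Arg1 for L1td1, are known from liver, stroma or yolk sac and immune cells.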

How the data were processed

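RNA-seq of polyA RNA was available for 2 teratoma libraries, 1 per group. The authors deposited read counts per gene as whole numbers without normalization, FPKM and TPM in 1 table of 45777 genes on mm10. The submitters' processing notes name bcl2fastq 2.20.0, Trimmomatic, HISAT2 2.1.0 and StringTie 2.1.3b, and both hg19 and mm10. StringTie derives counts from coverage, so the counts may be rounded estimates, which was not stated. The factor from FPKM to TPM was 2.33 for E14 and 2.03 for E14-Sox2TA/WT. Identifiers were matched to a RefSeq table of GRCm38.p6, the same build, for 45675 genes.

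The ratio of TPM was computed for each gene, with 1 added to each TPM on the log2 scale, which understates the change of low genes. Genes reaching a TPM of 10 in either library were evaluated, and a ratio above 2 was called. No p-value was computed. Intervals are exact Clopper-Pearson 95% intervals of the reads, which are not independent molecules, so they cover counting error only. Against 0 reads, 3 reads were used as a floor. The 8 genes, the 20 lists and the rules were chosen with earlier results of these data known. From every list, the 2 most abundant genes and the 2 with the largest absolute log2 ratio could be named, along with all genes of the Sall, Pou, Y-linked, Dppa and Khdc3, and RNA-binding lists, the nearest neighbours, the copies and the genes of like level. Some other list genes were named because they were the ones counted. Alternatives covered the pseudocount, the filter, the fold, FPKM, reads divided by the library total, TMM factors from edgeR, median-of-ratios size factors, mitochondrial and hemoglobin genes, and length. Scripts were tested on simulated data. Some rows of the table are not reported here. Analyses ran in R 4.3.3 with edgeR 4.0.16 and in Python 3.11.15 with scipy 1.17.1, pandas 2.3.3, numpy 2.4.6 and matplotlib 3.10.9.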

Additional observations from a re-analysis of the deposited data

How the results depend on the processing

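With a TPM of at least 10 required in both libraries, 2 of the 8 genes passed the 2-fold rule, Pou5f1 and Dppa5a, since the other 6 had a TPM under 10 in E14. Under the other 11 alternatives all 8 passed. The median log2 ratio over the 8 genes lay between 3.12 (pseudocount of 5) and 4.13 (reads divided by the library total). The fold of single genes lay between 3.92 (Sall4, pseudocount of 5) and 45.2 (Dppa5a, reads divided by the library total), and no alternative reversed a direction. Of these alternative folds, 25 lay outside the 95% counting interval of the gene and 49 within it. The intervals thus do not cover the choice of scaling or pseudocount. Pou5f1, for example, had a fold of 18.3 on FPKM. Another scaling moved the median of all evaluated genes from -0.18 on TPM to between -0.11 and 0.01, and the calls from 1253 higher and 2167 lower to, on FPKM, 1583 higher and 1655 lower. The scalings of the lists and the sums of Dppa5a and of Pou5f1 with near-identical copies, which are among these folds, were chosen after seeing the data. Of the list counts under other scalings, 195 stayed within 1.5 times, and 5 did not: NuRD subunits higher went from 1 to 0 with reads divided by the library total, TMM and median-of-ratios scaling, and cell cycle genes higher went from 1 to 2 with FPKM and with the library total. No paired analysis was possible because each group holds 1 library, and for the same reason no library could be left out. Depth limits the E14 values most, where Dppa2 and Dppa4 rest on 66 and 77 reads.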

Other observations

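Genes of the cell cycle are transcribed by teratoma cells of many kinds. Of 12 evaluated, against 10.8% higher and 18.7% lower over all genes, 1 was higher, the mitotic checkpoint kinase Bub1 (TPM 21.5 in E14 and 44.1 in E14-Sox2TA/WT), and 1 was lower, the proliferation marker Mki67 (137 and 54.7, 2.50-fold lower, 2.45 to 2.55). The replication clamp Pcna had a TPM of 234 and 324 and did not pass the rule. The median log2 ratio of the list was 0.49. Keratins of squamous and simple epithelia were higher in the list of teratoma tissues, with Krt5, of basal squamous cells, at a TPM of 25.1 and 127, 5.06-fold higher (4.77 to 5.37), and Krt8 at 118 and 426, 3.62-fold higher (3.51 to 3.74).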
